A study of Mus musculus with 6 samples.

Results

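The genes described are 10 imprinted genes, Peg3, Zdbf2, Plagl1, Igf2, Cdkn1c, Dlk1, H19, Meg3, Rian and Mirg, out of 33696 genes counted in single cells of the posterior mouse eye. They were chosen by name, with their expression by cell class and after eye drops already in view, and all 10 were found in every library. Raw counts of unique molecular identifiers (UMIs, which tag single RNA molecules before amplification) were summed for each gene, library and cell class. The study asked what contraction of the ciliary muscle does to the eye in relation to myopia. Tropicamide eyes, named the relaxation group, had 6 drops of tropicamide, a muscarinic antagonist that relaxes the muscle, at intervals of 10 min and a wait of 1 h. Saline eyes, named the contraction group, had saline drops as often. Each of the 6 libraries (tropicamide replicates 1 to 3, then saline replicates 1 to 3) is a pool of 4 right eyes, with 12 mice per group, and the pool is the replicate. Cornea, lens, iris and ciliary body were cut away before dissociation, and sclera, choroid and retina were kept. The sources used here give no strain, sex or age.

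An imprinted gene is transcribed mainly from the copy inherited from the mother or mainly from the copy inherited from the father, and methylation of a nearby control region keeps the choice from one cell generation to the next. In mice, Peg3, Zdbf2, Plagl1, Igf2 and Dlk1 are known to be expressed from the paternal copy, and Cdkn1c, H19, Meg3, Rian and Mirg from the maternal copy. As a group these genes are known for control of growth before and around birth, and many are turned down in adult tissue. UMI counts without sequence variants do not tell the parental copies apart, so the values below are the sum of both copies.

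Of the 10 genes, Zdbf2 lies on chromosome 1, Plagl1 on 10, Peg3, H19, Igf2 and Cdkn1c on 7, and Dlk1, Meg3, Rian and Mirg follow each other in this order on 12. H19, Meg3, Rian and Mirg are long non-coding RNAs that also carry microRNAs, and Igf2 carries one hairpin in an intron. RefSeq (GRCm38.p6) places 39 mature microRNAs inside the members, 26 in Mirg, 6 in Rian, 3 in Meg3, 2 in H19 and 2 in Igf2, with 38 different seeds. The microRNAs themselves were not measured, since poly(A) RNA counts read the host transcript. The sequences below show what the host RNAs carry, with the seed (bases 2 to 8, which pair with targets) in capitals. MiR-453 and miR-496a-5p of Mirg are the 2 that share a seed.
miR-675-5p (H19): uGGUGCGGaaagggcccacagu
miR-675-3p (H19): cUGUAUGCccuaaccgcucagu
miR-770-5p (Meg3): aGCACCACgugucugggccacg
miR-770-3p (Meg3): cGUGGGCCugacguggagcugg
miR-370-3p (Rian): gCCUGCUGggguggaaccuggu
miR-410-3p (Mirg): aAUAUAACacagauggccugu
miR-453 (Mirg): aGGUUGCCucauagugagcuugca
miR-496a-5p (Mirg): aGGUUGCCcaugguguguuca

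Promoters were listed for 8 of the 10 genes, 13 in all, and the 250 bases before each start were searched on both strands for 4 motifs. TGACGTCA, the palindrome known as the cyclic AMP response element, occurred in 3 of the 13, those of Peg3 and Meg3 and the second of Zdbf2, and in 1.55% of 32851 promoters. CCAAT was in 4 of the 13 and in 33.8% of all, and GGGCGG in 4 of the 13 and in 32.7% of all. The palindrome of the glucocorticoid response element was in 0 of the 13 and in 0.00913% of all. None of these motifs contains another, and a match is a description of these windows. The 3 promoters that hold the response element are shown with it in capitals, 5′ to 3′ on the gene's strand. Whether the element has a part in any change after tropicamide was not tested.
Peg3 promoter (chr7:6730420-6730669, minus strand, motif from 178 bases before the start): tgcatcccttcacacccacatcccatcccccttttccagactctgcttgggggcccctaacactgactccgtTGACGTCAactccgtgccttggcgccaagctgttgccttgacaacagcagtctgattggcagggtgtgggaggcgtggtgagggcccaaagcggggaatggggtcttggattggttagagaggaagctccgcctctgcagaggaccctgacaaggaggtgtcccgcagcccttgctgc
Meg3 promoter (chr12:109540746-109540995, plus strand, motif from 57 bases before the start): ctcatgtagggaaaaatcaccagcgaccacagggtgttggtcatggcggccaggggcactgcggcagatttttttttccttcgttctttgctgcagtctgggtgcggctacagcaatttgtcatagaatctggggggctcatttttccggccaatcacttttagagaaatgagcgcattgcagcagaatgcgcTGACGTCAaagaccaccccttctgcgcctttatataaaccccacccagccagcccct
Zdbf2 promoter (chr1:63273019-63273268, plus strand, motif from 59 bases before the start): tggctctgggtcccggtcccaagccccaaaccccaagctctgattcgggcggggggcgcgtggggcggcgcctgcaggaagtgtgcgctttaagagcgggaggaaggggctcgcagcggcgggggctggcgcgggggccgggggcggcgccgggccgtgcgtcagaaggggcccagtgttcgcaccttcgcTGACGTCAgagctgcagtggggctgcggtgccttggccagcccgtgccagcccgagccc

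The libraries held 66434 cell barcodes and 229624062 UMIs, with a median of 2188.5 to 2527.5 UMIs per barcode, and 60096 cells remained after filters and doublet removal. They formed 53 clusters, of which 42 could be named from marker genes, and 22 classes had at least 100 cells. Of the barcodes, 522 occurred in more than 1 pool. Ttr, a defining gene of the retinal pigment epithelium (RPE), averaged 80370 ± 4606 CPM in RPE-like cells, where CPM is counts per mega-UMI, the gene's UMIs divided by all UMIs of the class in a pool. Krt12, a corneal keratin, averaged 23980 ± 5628 CPM in 172 cells like corneal or conjunctival epithelium, although the cornea had been removed (SD, n = 6 pools each).

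Levels are given in CPM as mean ± SD over the pools with at least 10 cells of the class. They are a description with no test, since the genes were chosen for these patterns, and they compare classes within a gene. Where a class is not named after a cell type, its cluster number is used. Cluster B1 was led by Chil1, Smoc1 and Myoc, B5 by Ptn, Edn3 and Wnt10a, B8 by Igfbp6 and Mmp3, B24 by Fmod, Comp and Tnmd, B13 by Mlana and Pmel with rod markers, B15 by Ccl21a, Mmrn1 and Lyve1, and B16 by Cntn5 and Tmem132d.

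Peg3 codes for a zinc finger transcription factor known for roles in growth and in maternal behaviour. It reached 20 CPM in 18 of the 22 classes, as did Meg3, and no other member did so in more than 15. Its level averaged 234.5 ± 79.7 CPM in amacrine-like cells, 182.9 ± 39.5 CPM in fibroblast-like cells, 160.4 ± 23.8 CPM in cone-like cells and 160.3 ± 38.3 CPM in rod-like cells. The pools of these 4 classes overlapped, so their order is within the spread. Endothelial-like cells, at 16.1 CPM, and RPE-like cells, at 28.8 CPM, were among the low classes. Within fibroblast-like cells, cluster B18, led by Angptl7, Kera and Igfbp2, held 343.4 ± 59.8 CPM. The other 4 fibroblast-like clusters averaged 94.4 to 240.9 CPM, and pools of the highest of them, B3, overlapped those of B18.

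Zdbf2, a zinc finger gene whose imprint in mice is set early in development, was at 20 CPM or more in 3 of the 22 classes. These were endothelial-like cells at 44.2 ± 23.3 CPM, cone-like cells at 43.8 ± 14.9 CPM and amacrine-like cells at 37.6 ± 42.7 CPM, whose pools overlapped. Rod-like cells held 11.2 ± 0.936 CPM, below every cone-like pool (26.2 to 64.2 CPM). Within endothelial-like cells the gene was unevenly placed. All pools together gave 116.5 CPM in cluster B14, led by Plvap and Kdr, and 46.0 CPM in cluster B10, led by Vwf and Edn1. Cluster B7, led by Slco1a4, Abcb1a and Cldn5, genes known from vessels with a tight barrier, held 1.22 CPM, from 4 UMIs in 430 cells.

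Plagl1, also known as Zac1, codes for a zinc finger factor that can arrest the cell cycle and regulates other imprinted genes in mice. It was highest in cluster B1 at 153.9 ± 29.96 CPM, in cells like Müller glia, the radial glia of the retina, at 138.6 ± 60.7 CPM, and in melanocyte-like cells at 129.0 ± 40.2 CPM (3 pools). These overlapped, and fibroblast-like cells followed at 71.3 ± 18.3 CPM. Rod-like cells held 9.15 CPM and RPE-like cells 0.219 CPM, from 2 UMIs.

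Cdkn1c codes for p57, an inhibitor of cyclin-dependent kinases that halts division. Its highest levels were in matrix-making classes: 734.3 ± 239.1 CPM in cluster B24, 599.8 ± 138.1 CPM in B1, 565.0 ± 79.7 CPM in B5, 558.8 ± 97.3 CPM in fibroblast-like cells and 533.7 ± 99.4 CPM in B8. Pools of all 5 overlapped. Mural cells of vessels came next, smooth muscle-like cells with 399.3 ± 38.7 CPM and pericyte-like cells with 187.2 ± 44.0 CPM, which did not overlap each other. Neurons were low, with 26.5 ± 2.72 CPM in rod-like cells and 4.59 CPM in cone bipolar-like cells. Fibroblast-like cells were not uniform, since cluster B18 held 60.1 ± 23.2 CPM and cluster B3, led by Hmcn2 and Smoc2, held 846.6 ± 281.4 CPM. B18 was thus the fibroblast-like cluster with the most Peg3 and the least Cdkn1c.

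Igf2, the fetal insulin-like growth factor, was close to absent. No class exceeded 5.68 CPM, and 11 of the 22 classes had 0 UMIs. Fibroblast-like cells gave 61 UMIs in 2206 cells (1.84 ± 0.805 CPM), the most of any class, and Müller glia-like cells gave 13 UMIs in 556 cells (5.61 ± 3.48 CPM).

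Dlk1, a Notch-family ligand of the cell surface, was counted mostly in few cells. Endothelial-like cells had 349 UMIs of it, and 256 of them (73.4%) came from 5 cells. Per pool this gave 105.1, 0.435 and 33.3 CPM after tropicamide and 0, 159.3 and 8.28 CPM after saline, which overlapped across their whole range. Its UMIs in endothelial-like cells lay in clusters B14 and B41, both led by Plvap among other genes. In cluster B15, which carries the lymphatic markers Lyve1 and Mmrn1, all 24 UMIs came from 3 cells. The steadier level was that of the fibroblast-like cluster B18, with 52.9 ± 23.3 CPM and no pool under 31.9 CPM.

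H19, a long non-coding RNA of the locus next to Igf2, was a fibroblast transcript among the classes with at least 100 cells. It averaged 228.0 ± 45.9 CPM in fibroblast-like cells and 196.9 ± 247.5 CPM in cluster B8, and under 15 CPM in every other class with at least 100 cells. Clusters B20 and B4, which share the leading gene Pi16, held 590.5 ± 237.2 and 423.0 ± 73.4 CPM. H19 is itself among the leading genes of both, and helped to define them. Cluster B18 held 0.693 CPM, so the fibroblast-like cluster with the most Peg3 had the least H19.

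Meg3, Rian and Mirg, known from mice as non-coding RNAs of one maternally expressed domain, had like orders over the classes. Meg3 averaged 2727 ± 689.9 CPM in amacrine-like cells, and each amacrine-like pool (2119 to 3671 CPM) lay above every pool of rod bipolar-like cells, the next class at 1057 ± 102.4 CPM. Fibroblast-like cells held 926.2 ± 116.7 CPM, and cone bipolar-like cells 911.1 ± 262.2 CPM. Photoreceptors were low, with 24.4 CPM in cone-like cells and 7.33 CPM in rod-like cells. Rian was highest in fibroblast-like cells at 256.0 ± 70.6 CPM, before amacrine-like cells at 143.8 ± 48.6 CPM and cluster B5 at 133.6 ± 75.7 CPM, which overlapped. Mirg was highest in cluster B1 at 25.3 ± 8.05 CPM, in fibroblast-like cells at 24.7 ± 9.87 CPM and in amacrine-like cells at 20.5 ± 11.5 CPM, which also overlapped.

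**Figure D1:**
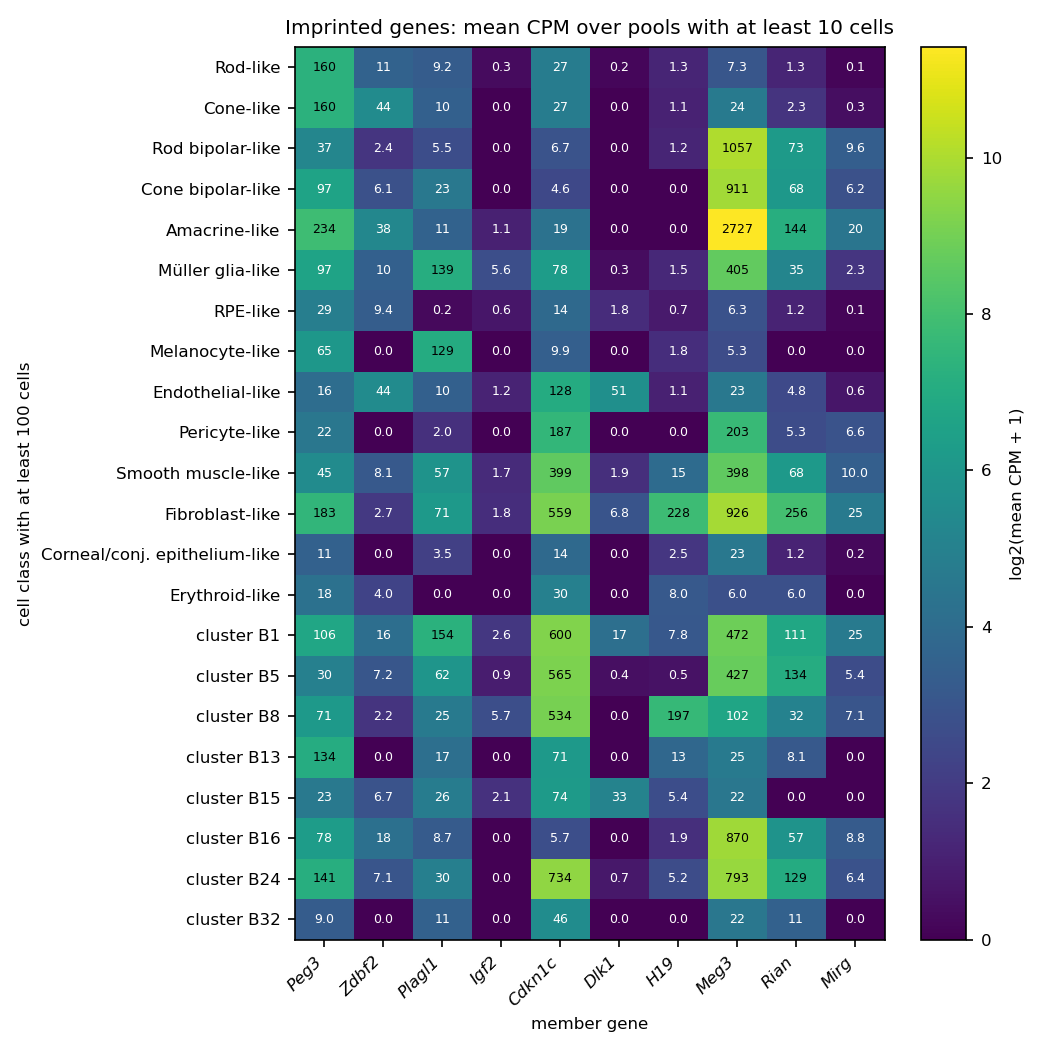
Mean CPM of the 10 genes (columns) in the 22 classes with at least 100 cells (rows), over the pools with at least 10 cells of the class, with colour on a log2(mean CPM + 1) scale and the mean CPM printed in each cell. Peg3 spans most classes, Meg3 peaks in amacrine-like cells at 2727 CPM, Cdkn1c is high in fibroblast-like cells at 558.8 CPM, and Igf2 stays at or under 5.68 CPM.

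Free RNA in droplets can give low counts in cells that do not express a gene, so the members were set against Dcn, a fibroblast transcript. Within rod-like cells, Peg3 had a median of 1804 UMIs per 1000 Dcn UMIs over the 6 pools (1452 to 2713), against 12.6 in fibroblast-like cells. Cdkn1c had 298.5 in rod-like cells, against 37.9 in fibroblast-like cells. For H19 the ratio was 14.4 in rod-like cells, against 16.9, for Meg3 79.7 against 66.9, and for Rian 16.5 against 21.2. For Plagl1 it was 106.8 against 5.13, and for Zdbf2 131.7 against 0.189. In rod-like cells H19, Meg3 and Rian stood in about the proportion to Dcn found in fibroblast-like cells. Peg3, Cdkn1c, Plagl1 and Zdbf2 did not. Where these UMIs came from was not tested, and fibroblast-like cells were not the class with the most Meg3.

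Likeness of pattern was measured as Pearson's r of log2(CPM + 1) over the 22 classes, among 12944 genes with at least 20 CPM in a class, and is a description. The gene most like Peg3 was Klhl22 (r = 0.845), followed by Ank2 (0.827), an adaptor of the neuronal membrane skeleton, and Magi2 (0.820). Cdkn1c was closest to Tmem100 (0.943), to Fkbp10 (0.940), a chaperone of collagen folding, and to Bgn (0.931), which codes for the matrix proteoglycan biglycan. Dlk1 was closest to Sele (0.914), the endothelial selectin, Erg (0.871) and Adcy4 (0.861). H19 was closest to Lmx1a (0.896), Mmp27 (0.860) and Ifi205 (0.844). Plagl1 was closest to Lgi4 (0.834), Etfbkmt (0.811) and Pygb (0.811), and Zdbf2 to Slc35g2 (0.741), Zfp934 (0.647) and Lrrn3 (0.639). The 3 RNAs of the chromosome 12 domain named each other: Meg3 was closest to Clip3 (0.922), Runx1t1 (0.920) and Mirg (0.913), Rian was closest to Meg3 (0.8996) and Mirg (0.876) before Aff2 (0.858), and Mirg was closest to Meg3 and Rian before Shc2 (0.875). Dlk1, which lies beside them on chromosome 12, was not among them.

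The effect of tropicamide was tested wherever each pool had 30 or more cells of a class, which left 9 classes, by edgeR's quasi-likelihood test over all genes of a class with Benjamini-Hochberg adjustment and a threshold of 0.05. The members were picked with this contrast in view, so the values describe them and give no independent support. Of 48 pairs of a member and a class that could be tested, 1 passed, Peg3 in rod-like cells, and 17 had an unadjusted p under 0.05. Such values also occurred among all genes: they included 4 of 7 members and 4461 of 16286 genes in rod-like cells, and 4 of 10 members and 1457 of 13413 genes in fibroblast-like cells. In cluster B5 they were those of Cdkn1c, Meg3, Peg3 and Rian, of 5 members tested, beside 644 of 8929 genes. Endothelial-like cells had Cdkn1c and Zdbf2 of 6, beside 664 of 10379 genes. Cluster B1 had Cdkn1c and Rian of 8, beside 745 of 8811 genes. Müller glia-like cells had Peg3 of 5, beside 876 of 6513 genes. DESeq2, run as another tool, called Peg3 in rod-like cells and Cdkn1c in cluster B1. In sums over cells, fewer cells of a kind and less RNA per cell cannot be told apart.

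Peg3 was higher after tropicamide in rod-like cells. Its levels there were 207.9, 193.3 and 181.9 CPM after tropicamide, against 123.6, 125.4 and 129.5 CPM after saline. The lowest tropicamide value exceeded the highest saline value, and both groups were narrow. In rod-like cells 13.5% of the 16286 genes tested were higher after tropicamide without overlap. The means were 194.4 CPM after tropicamide and 126.2 CPM after saline, a log2 fold change of 0.64 ± 0.05 (SE) with an edgeR adjusted p of 0.000359. Of the 7 members tested in rod-like cells this was the 1 called, where 10.3% of 16286 genes were called, 5.58% higher and 4.72% lower after tropicamide. RPE-like cells, with 1 member tested and 0 called, had 0.121% called, 7.01% of genes higher and 6.79% lower without overlap. In rod-like cells the members had a median log2 fold change of 0.24, against -0.00319 over all genes.

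**Figure D2:**
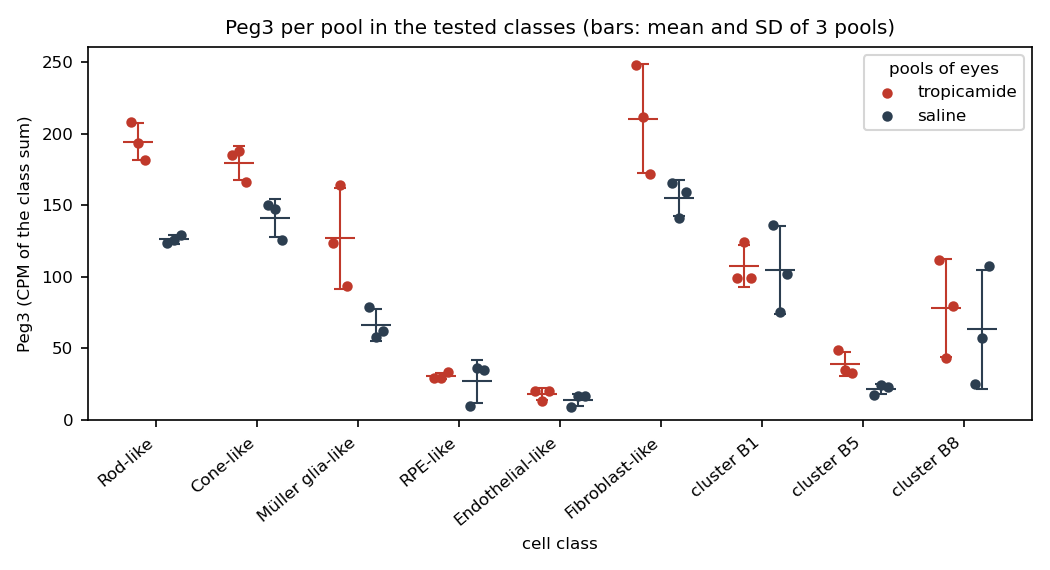
Peg3 in CPM (y axis) per pool in the 9 tested classes (x axis), tropicamide left of saline, with points for pools and bars for mean and SD of 3 pools. In rod-like cells the tropicamide pools (181.9 to 207.9 CPM) stand clear of the saline pools (123.6 to 129.5 CPM).

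Rod-like cells formed several clusters whose shares differed between the groups. Cluster A3, for example, held 17.2%, 23.0% and 17.7% of rod-like cells after tropicamide, against 8.59%, 10.7% and 13.3% after saline. Peg3 was therefore also tested inside each rod-like cluster with at least 10 cells in every pool. It passed in 7 of 9 clusters. The share of all genes called was 7.78% in A0, 1.78% in A1, 5.65% in A2, 3.17% in A3, 3.59% in A4, 0.99% in A5 and 0.761% in A6, and 0.0656% in A11 and 0.0827% in A13, where Peg3 did not pass. In A0, the largest with 11870 cells, the values were 214.5, 203.4 and 185.5 CPM after tropicamide, against 116.0, 125.1 and 124.5 CPM after saline (log2 fold change 0.74 ± 0.06, edgeR adjusted p 1.11e-06). The groups did not overlap in A0, and the same held in A1, A2, A3, A4, A5 and A6, with log2 fold changes of 0.81, 0.57, 0.76, 0.62, 0.48 and 0.71. Cluster A13 had 0.80 ± 0.19 without passing (edgeR adjusted p 0.107), and its groups did not overlap either.

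Cluster A11, led by Dscaml1, Cdcp3 and Cadm1, was the tested rod-like cluster whose groups overlapped. Its saline pools had 38, 47 and 48 cells, with a median of 863.5 UMIs per cell in the cluster, so its saline levels rest on few UMIs. It held 217.5, 262.8 and 223.5 CPM after tropicamide, against 110.7, 287.3 and 258.3 CPM after saline. The log2 fold change was 0.03 ± 0.27 (edgeR adjusted p 0.993), and this standard error leaves room for a change like that of A5 (0.48). This cluster took 3.70%, 3.33% and 1.80% of rod-like cells after tropicamide, against 0.499%, 0.536% and 0.6001% after saline.

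**Figure D3:**
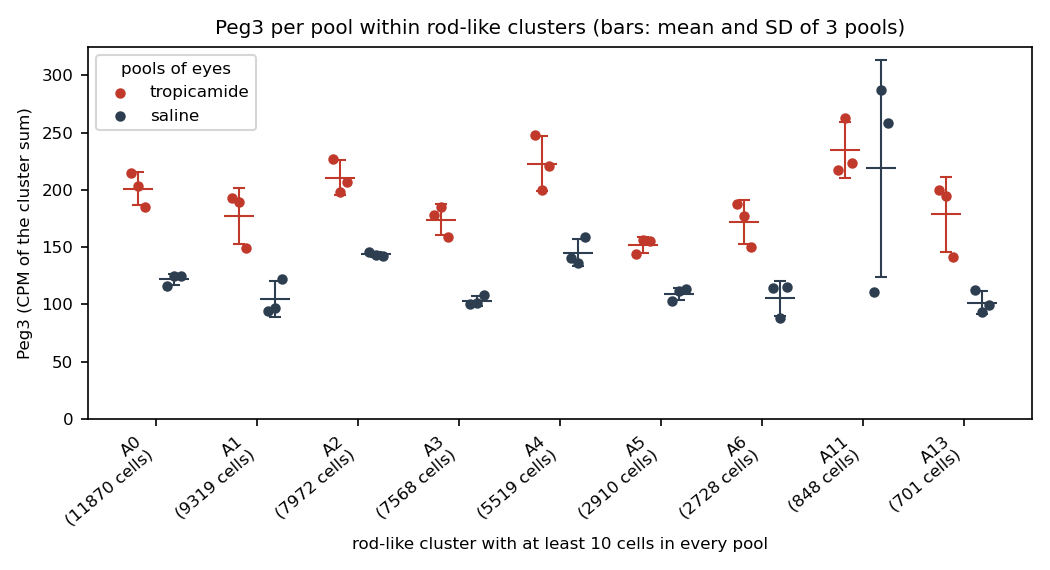
Peg3 in CPM (y axis) per pool inside the 9 rod-like clusters with at least 10 cells in every pool (x axis, with the number of cells), tropicamide left of saline, with points for pools and bars for mean and SD of 3 pools. The tropicamide pools lie above the saline pools in every cluster shown except A11.

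The mitochondrial share of UMIs, low in nuclei and stripped cells, also moved with the groups. Of the rod-like cells, 43.6%, 52.6% and 41.2% were under the median share of 0.252% after tropicamide, against 54.3%, 60.0% and 47.6% after saline. In cells under the median, Peg3 held 211.9, 197.8 and 189.0 CPM after tropicamide, against 124.4, 131.4 and 127.4 CPM after saline (log2 fold change 0.66 ± 0.06, edgeR adjusted p 2.16e-05, where 11.8% of genes were called). In cells at or over it, Peg3 held 204.7, 188.6 and 176.7 CPM after tropicamide, against 122.5, 116.5 and 131.4 CPM after saline (log2 fold change 0.63 ± 0.06, edgeR adjusted p 0.0002965, where 5.21% were called). The difference was as large on either side of the median, and neither set of groups overlapped.

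Markers of some other cell types were higher after tropicamide in rod-like cells, where 5.58% of all genes rose. Of 8 fibroblast markers, 6 rose (edgeR, adjusted p under 0.05), with summed levels of 469.9, 449.0 and 337.9 CPM after tropicamide, against 218.2, 163.4 and 327.3 CPM after saline. Of 7 RPE markers, 6 rose, with sums of 125.2, 283.3 and 226.2 CPM after tropicamide, against 47.6, 38.1 and 80.1 CPM after saline. Of 5 erythroid markers, 4 rose, with sums of 53.9, 1623 and 1031 CPM after tropicamide, against 32.2, 16.6 and 12.6 CPM after saline. Of 8 Müller glia markers, 2 rose, Car14 and Rlbp1, and Rlbp1 is also on the RPE list. Of 8 endothelial markers, 0 rose. No marker of these lists was without a UMI in rod-like cells. Fibroblast-like cells held Peg3 at 172.0 to 248.1 CPM after tropicamide, RPE-like cells averaged 28.8 CPM, and erythroid-like cells held 5 UMIs in 103 cells. The part of RNA from other cell types in the members' values was not tested.

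Outside rods, Peg3 had a log2 fold change above 0 in each of the other 7 classes tested, and passed in none of them. Müller glia-like cells held 123.6, 163.9 and 93.7 CPM after tropicamide, against 78.8, 58.0 and 62.1 CPM after saline, without overlap (log2 fold change 0.88 ± 0.24, edgeR adjusted p 0.0593, where 2.07% of genes were called and 10.4% were higher without overlap). Other changes stood beside this one. Müller glia-like cells of tropicamide pools had median depths of 1545, 1622.5 and 1230 UMIs, against 3100, 7168 and 4858 UMIs in saline pools. The shallow cluster B17 made up 47.1%, 43.4% and 46.2% of them after tropicamide, against 20.8%, 27.3% and 24.5% after saline. Of 8 rod markers 5 rose there, with sums of 2700, 3279 and 5370 CPM after tropicamide, against 1730, 1871 and 2055 CPM after saline, and of 8 fibroblast markers 2 rose. Their part in the Peg3 values was not tested. Within cluster B11, the deep Müller glia-like cluster, Peg3 held 123.7, 191.1 and 85.7 CPM after tropicamide, against 80.3, 54.5 and 64.3 CPM after saline (log2 fold change 0.94 ± 0.28, edgeR adjusted p 0.176, where 0.459% were called).

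Fibroblast-like cells held Peg3 at 248.1, 211.4 and 172.0 CPM after tropicamide, against 165.4, 141.2 and 159.1 CPM after saline. The groups did not overlap (log2 fold change 0.36 ± 0.12, edgeR adjusted p 0.332), in a class where 0.0% of 13413 genes passed, 1457 had an unadjusted p under 0.05, DESeq2 called 86, and 13.5% were higher without overlap. Inside the fibroblast-like clusters the values were uneven, with a log2 fold change of 0.68 in B6 and 0.40 in B4, and of -0.06 in B18, where Peg3 is highest. None passed with edgeR, where 0.0% of genes were called in B4, 0.114% in B6 and 0.0145% in B18. Cone-like cells held 184.9, 187.9 and 165.9 CPM after tropicamide, against 150.3, 147.6 and 126.0 CPM after saline. That is a log2 fold change of 0.34 ± 0.18 without overlap (edgeR adjusted p 0.996, where 0.0414% were called and 4.88% were higher without overlap). In cluster B12, the largest of that class, the log2 fold change was 0.17 ± 0.18 (edgeR adjusted p 0.959, where 0.0315% were called). Cluster B5 held 48.7, 35.2 and 33.0 CPM after tropicamide, against 17.8, 24.2 and 23.2 CPM after saline, again without overlap (log2 fold change 0.78 ± 0.26, edgeR adjusted p 0.532, where 0.0784% were called and 8.77% were higher without overlap). Groups overlapped in RPE-like cells, endothelial-like cells and cluster B1, where the log2 fold changes were 0.13 ± 0.35, 0.28 ± 0.31 and 0.03 ± 0.19.

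Amacrine-like cells were too few for a test, with 121 in all. Their Peg3 levels were 356.7, 248.6 and 292.9 CPM after tropicamide, against 158.0, 188.7 and 161.8 CPM after saline. Each tropicamide pool was above each saline pool, on a total of 328 UMIs. The top 5 cells held 95 of these UMIs (29.0%), and tropicamide replicate 3 had 10 cells. How many other genes separated the groups in this class was not counted.

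Cdkn1c was also above 0 in all 8 classes tested, with log2 fold changes of 0.23 to 0.53, and none passed with edgeR. Cluster B1 held 726.8, 726.7 and 702.3 CPM after tropicamide, against 509.8, 399.4 and 533.8 CPM after saline. Its groups did not overlap (log2 fold change 0.53 ± 0.12, edgeR adjusted p 0.151, DESeq2 adjusted p 0.0492, where edgeR called 0.159% of genes and 10.1% were higher without overlap). Fibroblast-like cells held 651.8, 639.0 and 648.8 CPM after tropicamide, against 448.9, 494.2 and 469.8 CPM after saline. These groups were narrow and did not overlap (log2 fold change 0.38 ± 0.09, edgeR adjusted p 0.250, where 0.0% of 13413 genes were called and 13.5% were higher without overlap). Inside that class, cluster B3 had a log2 fold change of 0.63 ± 0.19, B6 of 0.38 ± 0.16, B4 of 0.22 ± 0.13 and B18 of 0.02 ± 0.31. The fibroblast-like cells came from these clusters in unequal shares, with B18 at 13.8%, 9.28% and 3.13% after tropicamide, against 6.55%, 6.31% and 7.48% after saline.

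Cluster B5 held Cdkn1c at 659.5, 639.4 and 600.2 CPM after tropicamide, against 535.0, 476.4 and 479.6 CPM after saline (log2 fold change 0.30 ± 0.11, edgeR adjusted p 0.579, where 0.0784% were called and 8.77% were higher without overlap). Endothelial-like cells held 161.9, 143.5 and 137.8 CPM after tropicamide, against 87.4, 132.8 and 106.7 CPM after saline (log2 fold change 0.48 ± 0.15, edgeR adjusted p 0.571, where 0.0% of 10379 genes passed, 664 had an unadjusted p under 0.05, DESeq2 called 16, and 6.46% were higher without overlap). Rod-like cells held 28.9, 30.1 and 26.5 CPM after tropicamide, against 22.5, 25.6 and 25.5 CPM after saline (log2 fold change 0.23 ± 0.07, edgeR adjusted p 0.0707, where 13.5% were higher without overlap). In these classes, as in fibroblast-like cells and B1, the 2 groups did not overlap. That made 5 classes for Cdkn1c and 5 for Peg3, with rods, fibroblast-like cells and B5 common to both. In Müller glia-like cells, cone-like cells and cluster B8 the Cdkn1c groups overlapped.

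**Figure D4:**
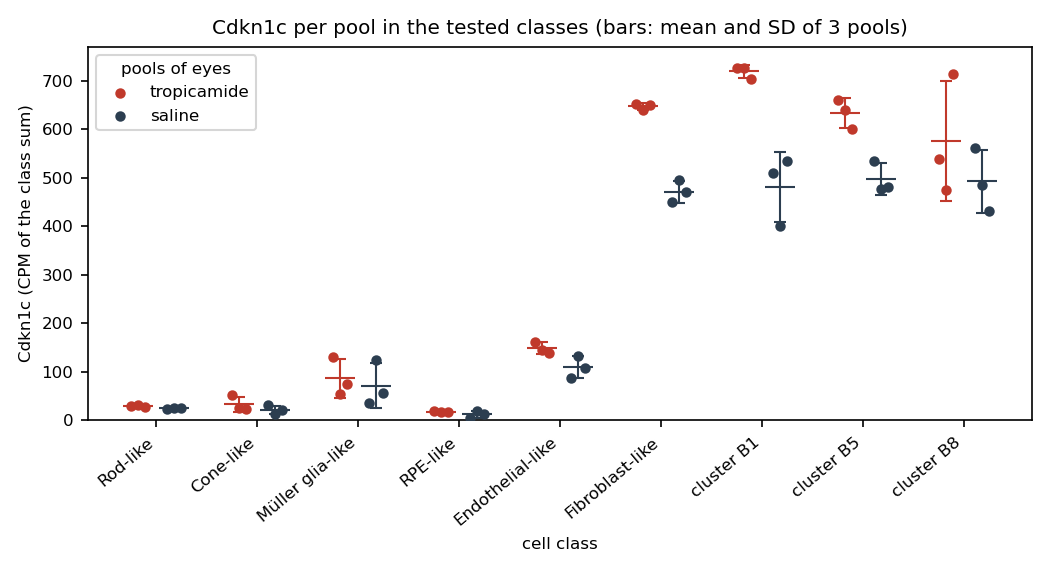
Cdkn1c in CPM (y axis) per pool in the 9 tested classes (x axis), tropicamide left of saline, with points for pools and bars for mean and SD of 3 pools. In fibroblast-like cells the tropicamide pools (639.0 to 651.8 CPM) stand above the saline pools (448.9 to 494.2 CPM).

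Zdbf2 in endothelial-like cells was at 61.5, 53.5 and 76.8 CPM after tropicamide, against 26.5, 16.6 and 30.4 CPM after saline. The groups did not overlap (log2 fold change 1.19 ± 0.22, edgeR adjusted p 0.1797, where 0.0% of 10379 genes were called and 6.46% were higher without overlap). The class held 438 UMIs of Zdbf2 in 151 of 996 cells, and the top 5 cells held 102 of them (23.3%). The cluster with most Zdbf2, B14, made up 33.3%, 23.6% and 8.70% of endothelial-like cells after tropicamide, against 10.7%, 15.9% and 23.1% after saline. Cluster B7, where the gene is near 0, made up 31.4%, 34.8% and 62.6% after tropicamide, against 65.5%, 59.1% and 44.9% after saline. Inside cluster B10, which had at least 10 cells in every pool, Zdbf2 was at 45.5, 60.5 and 33.9 CPM after tropicamide, against 18.7, 0 and 45.8 CPM after saline, with overlap (log2 fold change 0.53 ± 0.43, edgeR adjusted p 0.996, where 0.0488% were called). In fibroblast-like cells Zdbf2 lay the other way, at 1.52, 2.12 and 2.28 CPM after tropicamide, against 2.91, 3.04 and 4.31 CPM after saline, without overlap (log2 fold change -0.89 ± 0.32, edgeR adjusted p 0.351, where 5.61% were lower without overlap). In rod-like cells its groups overlapped, at 10.2 to 11.0 CPM after tropicamide and 10.6 to 12.7 CPM after saline.

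Plagl1 had log2 fold changes below 0 in all 6 classes tested and passed in none. In rod-like cells it was at 6.81, 8.66 and 7.78 CPM after tropicamide, against 11.3, 9.46 and 10.9 CPM after saline. The groups did not overlap, with a log2 fold change of -0.42 ± 0.13 (edgeR adjusted p 0.0587, where 18.2% were lower without overlap). Inside rod-like cluster A3 the log2 fold change was 0.45 (edgeR adjusted p 0.592), in the other direction. In cluster B1, where Plagl1 is highest, it was at 115.3, 145.4 and 162.2 CPM after tropicamide, against 204.8, 157.9 and 137.9 CPM after saline, with overlap. Müller glia-like pools also overlapped, at 93.7 to 204.9 CPM after tropicamide and 92.8 to 227.1 CPM after saline.

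The non-coding RNAs of chromosome 12 did not pass in any class. Rian in fibroblast-like cells was at 148.3, 188.3 and 279.5 CPM after tropicamide, against 304.4, 292.0 and 323.6 CPM after saline. The groups did not overlap, with tropicamide replicate 3 closest to saline (log2 fold change -0.64 ± 0.21, edgeR adjusted p 0.333). In that class 0.0% of 13413 genes were called and 5.61% were lower without overlap. Without that replicate the log2 fold change was -0.97 and passed (edgeR adjusted p 0.0251), in a fit that called 169 of 13957 genes. Within cluster B4 it was -0.71 ± 0.14 (edgeR adjusted p 0.209). In cluster B5 the Rian groups overlapped, with means of 101.9 CPM after tropicamide and 165.3 CPM after saline (log2 fold change -0.76 ± 0.32, edgeR adjusted p 0.654). In cluster B1 Rian lay the other way, at 141.7, 126.1 and 116.2 CPM after tropicamide, against 87.5, 86.1 and 107.3 CPM after saline. These groups did not overlap (log2 fold change 0.40, edgeR adjusted p 0.438, where 0.159% of genes were called and 10.1% were higher without overlap).

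Meg3 overlapped between the groups in fibroblast-like cells, at 776.3, 813.7 and 1008 CPM after tropicamide and 903.7, 977.2 and 1078 CPM after saline (log2 fold change -0.26 ± 0.13, edgeR adjusted p 0.523). Its groups also overlapped in cluster B5, with means of 361.1 CPM after tropicamide and 493.4 CPM after saline (log2 fold change -0.50 ± 0.20, edgeR adjusted p 0.624). In rod-like cells, where its ratio to Dcn was near that of fibroblast-like cells, the log2 fold change was 0.56 ± 0.25 (edgeR adjusted p 0.174). It was 0.93 and passed without saline replicate 3 (edgeR adjusted p 0.0130), a fit in which 2427 of 16619 genes were called, against 1676 of 16286 with all pools. In cone bipolar-like cells, too few for a test, Meg3 was at 779.7, 1150 and 1330 CPM after tropicamide, against 712.0, 735.0 and 759.7 CPM after saline, without overlap. Saline replicate 2 had 11 of those cells, and other genes without overlap there were not counted. Mirg was tested in fibroblast-like cells and cluster B1, where its groups overlapped, with log2 fold changes of -0.18 ± 0.38 and -0.34 ± 0.29.

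H19 in fibroblast-like cells was at 164.3, 248.9 and 292.4 CPM after tropicamide, against 187.7, 244.1 and 230.6 CPM after saline, with overlap and a log2 fold change of 0.03 ± 0.21. In rod-like cells, where its ratio to Dcn was also near that of fibroblast-like cells, the log2 fold change was 0.78 ± 0.36 (edgeR adjusted p 0.185). Igf2 in fibroblast-like cells was at 2.37, 1.37 and 2.09 CPM after tropicamide, against 2.91, 0.607 and 1.69 CPM after saline, also with overlap (log2 fold change 0.02 ± 0.48). Dlk1 in fibroblast-like cells was at 8.47, 7.37 and 5.14 CPM after tropicamide, against 4.36, 8.50 and 7.23 CPM after saline (log2 fold change 0.0014 ± 0.27). For these 3 genes the groups overlapped in fibroblast-like cells, and the standard errors leave room for changes of that size in either direction. Fibroblast-like cells were the only class with all 10 members tested. There the median log2 fold change of the members was -0.0916, against 0.00444 over all genes, and 5 were above 0. In all cells summed, where all 10 were also tested, the median was 0.321, against 0.00143 over all genes, and 9 were above 0. In that sum edgeR called 0 members and 0.0% of 19956 genes, and the cell classes had unequal shares in the pools.

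**Figure D5:**
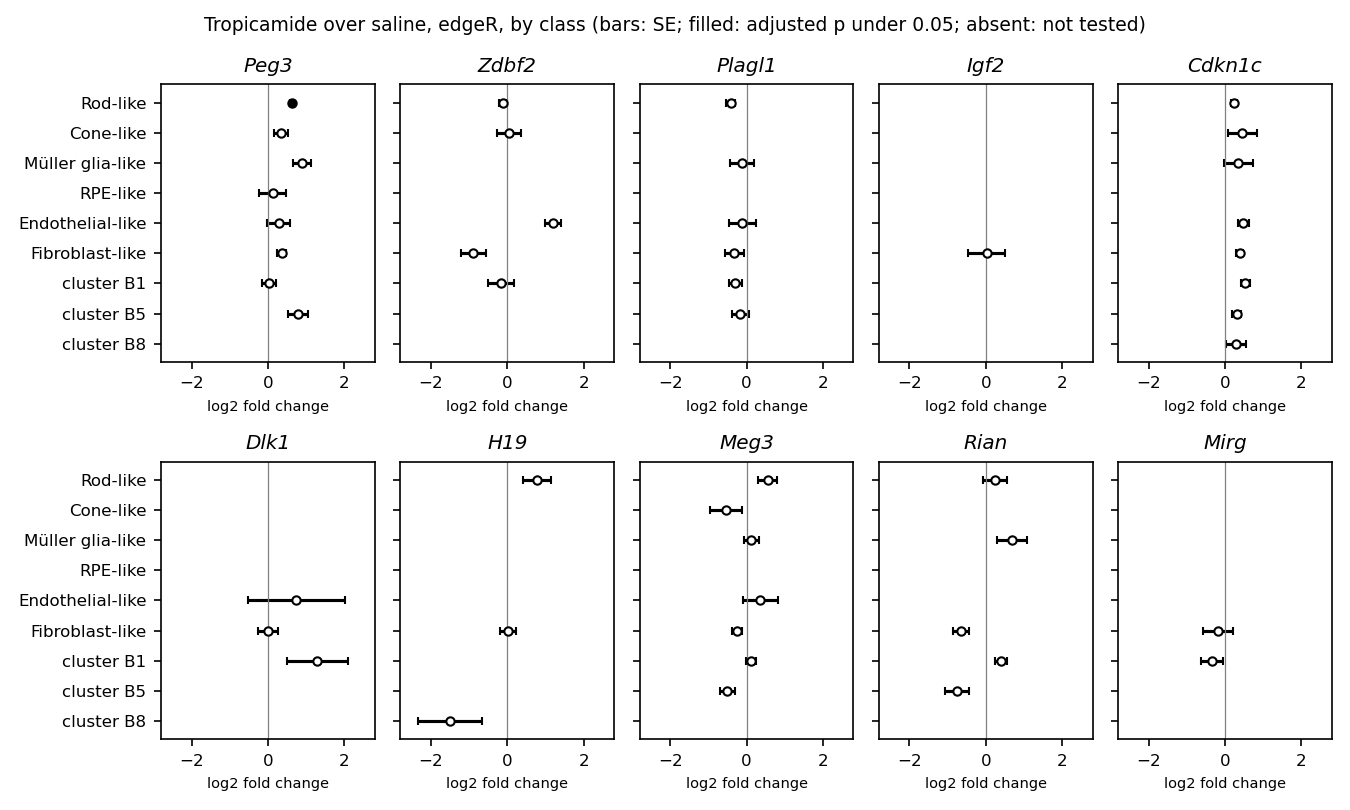
Log2 fold change of tropicamide over saline (x axis) of each gene (panels) by tested class (rows), from edgeR, with bars for the standard error, a filled point for an adjusted p under 0.05, and no point where the gene was not tested. Peg3 and Cdkn1c lie above 0 in every class tested and Plagl1 below 0, and the one filled point is Peg3 in rod-like cells at 0.64.

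Whether a member changed differently in a class than in rod-like cells was tested by limma, with class and drops in one fit and the pool as a block, in 66 pairs of a member and a class. Of these, 1 passed, H19 in RPE-like cells, which rests on 4 UMIs in that class, where 5.3% of all genes passed. The share of genes that passed was 0.479% for fibroblast-like cells, 0.0131% for cone-like cells and 0.279% for cluster B8, with no member among them. For Peg3 no difference between another class and rods passed. The largest were -0.57 ± 0.19 in cluster B1 (limma adjusted p 0.241) and -0.33 ± 0.12 in fibroblast-like cells (limma adjusted p 0.228). It was above 0 in Müller glia-like cells (0.19 ± 0.25) and cluster B5 (0.10 ± 0.29) and below 0 in the other classes. Zdbf2 in endothelial-like cells differed from rods by 1.39 ± 0.26 on the log2 scale (limma adjusted p 0.157, where 0.0% of 16391 genes passed and 1721 had an unadjusted p under 0.05). The change of Cdkn1c in cluster B1 differed from that in rods by 0.29 ± 0.13 (limma adjusted p 0.375).

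Other imprinted genes and genes that act on imprints were counted in rod-like cells, where 5.58% of all genes rose, from lists chosen with earlier results known. Of 24 other paternally expressed genes, 13 were tested and 2 rose, Mcts2 and Mkrn3, with a list median of 0.03 in log2 fold change. Mcts2 was at 40.9, 51.0 and 41.6 CPM after tropicamide, against 32.9, 29.2 and 31.2 CPM after saline (log2 fold change 0.54 ± 0.09, edgeR adjusted p 0.00514). Of 26 other maternally expressed genes, 19 were tested and 1 rose, Dcn, which is also the fibroblast marker above. Of 12 factors that maintain imprints, 11 were tested and 1 rose. This was Zfp445, a zinc finger protein that protects imprints in mouse and human, at 219.6, 209.8 and 211.9 CPM after tropicamide, against 174.1, 188.2 and 173.9 CPM after saline (log2 fold change 0.27 ± 0.05, edgeR adjusted p 0.00868). None of the tested genes of these lists fell.

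Of 14 genes of the insulin-like growth factor axis, to which Igf2 belongs, 13 were tested in rod-like cells and 4 rose, Igf1, Igfbp4, Igfbp5 and Igfbp6, with a list median of 0.90 in log2 fold change. Igfbp5 was at 51.2, 62.9 and 31.9 CPM after tropicamide, against 20.6, 20.6 and 37.6 CPM after saline, with overlap (log2 fold change 0.90 ± 0.25, edgeR adjusted p 0.0394). All 4 are at their highest outside rods: Igfbp5 averaged 10190 ± 1554 CPM in cluster B1, and Igf1 2442 ± 166.4 CPM in B5. In fibroblast-like cells, 0 of the 12 tested genes of the axis passed with edgeR. Highest of the other listed imprinted genes, maintenance factors and axis genes was Dcn in B5 at 19300 ± 985.0 CPM, followed by Igfbp5 in B1. Next came Igfbp7 in pericyte-like cells at 3824 ± 553.1 CPM, Igfbp6 in B8 at 2576 ± 1551 CPM and Gnas in B1 at 2493 ± 178.4 CPM.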

How the data were processed

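Single-cell RNA of 6 pools was analysed from the deposited UMI count matrices. These raw counts came from Cell Ranger 8.0.1 per the file headers, and the submitters' processing notes name STAR and GRCm39. Annotation release and intron counting are not stated there. The dissociation and sorting text in the labels describes bone tissue and was not used. Depth was 30761887 to 49477707 UMIs per pool. Barcodes needed 500 UMIs, 300 genes and at most 20% mitochondrial UMIs (416 removed), and 5922 doublets were removed by a score against simulated doublets. Cells were clustered with leidenalg 0.10.2 in Python 3.11.15 and named from marker lists. Counts were summed per pool and class and tested with edgeR 4.0.16 (TMM, filterByExpr) in R 4.3.3, with limma 3.58.1 for differences between classes and DESeq2 1.42.0 as an alternative; the tests were checked on simulated data. The members, gene lists and tests were chosen with earlier results of these data known. Named genes are all members, the 3 genes most like each member of at least 20 CPM in a class, and, of the other listed imprinted, maintenance and insulin-like growth factor genes, up to 6 past the threshold with at least 20 CPM per class and the 6 with the highest level. The pools within a group differed beyond sampling noise, and p-values measure the spread between pools. The main tests did not pair the pools by replicate number. Alternatives were another normalization, DESeq2, no low-count filter, a replicate block, leaving out each pool, a stricter cell filter, no doublet removal, and, chosen after seeing the data, each cluster on its own.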

Additional observations from a re-analysis of the deposited data

Results flagged for a closer look

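The change of H19 after tropicamide differed between RPE-like cells and rod-like cells by a test of the difference itself. The difference, the log2 fold change in RPE-like cells minus that in rod-like cells, was -2.24 ± 0.62 (SE; limma adjusted p 0.0496, where 5.3% of 15242 genes passed). RPE-like cells held 4 UMIs of H19 in all, at 0, 1.31 and 0.683 CPM after tropicamide and 0, 0 and 2.49 CPM after saline. Rod-like cells held 1.70, 1.84 and 1.28 CPM after tropicamide, against 0.425, 0.993 and 1.38 CPM after saline. The median of all genes in that fit was -0.222, so a shift of the whole fit stands beside the value. The call was lost without any 1 of the 6 pools (-2.43 to -1.96) and without doublet removal (-1.85, limma adjusted p 0.0881).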

How the results depend on the processing

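Peg3 in rod-like cells kept its direction and its call with other size factors, DESeq2, no low-count filter, the stricter cell filter and no doublet removal, and without any 1 pool (log2 fold change 0.59 to 0.68). Deviations from the group mean correlated at -0.0346, -0.122 and -0.264 between same-numbered rod pools. With 3 pools a group, these values cannot decide whether the replicate numbers pair the pools. The replicate block left 1 member past the threshold in rod-like cells (Peg3, 0.64) and 0 in the other classes. Without the low-count filter, which tests more genes, members past the threshold numbered 3 in rod-like cells, 2 in fibroblast-like cells, 1 in endothelial-like cells, 1 in cluster B1, 2 in B5 and 1 in Müller glia-like cells. Over all genes that setting called 2262 of 26106, 352 of 24161, 158 of 20631, 150 of 21351, 95 of 20661 and 277 of 19974 in these classes, in the same order. Without doublet removal there were 3 in rod-like cells (Cdkn1c and Plagl1 besides Peg3), with 1824 of 16708 genes called. DESeq2 gave 1 in cluster B1 (Cdkn1c) and 2 over all cells summed, where edgeR gave 0; DESeq2 called 34 of 8811 and 526 of 19956 genes. Leaving out 1 pool gave 1 to 2 in rod-like cells, with 2 without saline replicate 3, and 0 to 1 in fibroblast-like cells, with 1 without tropicamide replicate 3. It gave 0 to 1 for members whose change in fibroblast-like cells differed from that in rods, and 0 to 0 for RPE-like cells, where the stricter cell filter and no doublet removal also gave 0. Some log2 fold changes with no call changed sign. Leaving out 1 pool gave -0.20 to 0.53 for Peg3 in RPE-like cells, -0.16 to 0.24 for Peg3 in B1, -0.0561 to 0.943 for Cdkn1c in Müller glia-like cells and -0.0303 to 0.826 for Cdkn1c in cone-like cells. Single clusters gave -0.11 for Cdkn1c in A5 of the rod-like cells, 0.45 for Plagl1 in A3 of the rod-like cells and -0.0608 for Peg3 in B18 of the fibroblast-like cells. The cause was not tested. With 3 pools a group, and few UMIs for Igf2, Dlk1, Mirg and, outside fibroblast-like cells, H19, small changes of these genes were not detectable.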

Other observations

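Cells in clusters too small for a class also carried the genes. Cluster B35, 88 cells led by Erfe and Chodl with Pax7, a factor of muscle satellite cells, held Peg3 at 545.7, 394.1 and 439.0 CPM after tropicamide and 359.2, 607.2 and 302.3 CPM after saline. Its pooled 412.7 CPM was above the mean of each of the 22 larger classes, and its groups overlapped. Meg3 was at 1378 CPM there over all pools, and Plagl1 at 116.7 CPM. H19 was at 91.3 CPM, from 54 UMIs, beside Dcn at 187.7 CPM. Of its pools, saline replicate 2 had 5 cells.

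Cells like ciliary or iris epithelium, 66 in all, remained although the iris and ciliary body had been removed. Over all pools they held Cdkn1c at 190.4 CPM, Plagl1 at 84.3 CPM, Peg3 at 40.7 CPM and Meg3 at 208.4 CPM, and Igf2 had 0 UMIs. Schwann-like cells, 94 in all, held Meg3 at 457.2 CPM and Peg3 at 42.1 CPM. Cells like microglia or macrophages, 94 in all, were low in the members, with Peg3 at 8.37 CPM, Cdkn1c at 17.8 CPM and H19 at 0 UMIs.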
